A study of Mus musculus with 4 samples.

Results

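Transcription factors that drive the differentiation of hair cells (HCs), the mechanosensory cells of the inner ear, were followed across the cochlea and the vestibular system of newborn mice. The genes were *Atoh1*, *Pou4f3*, *Gfi1*, *Barhl1*, *Lhx3* and *Ikzf2*, taken by symbol from a table of 12814 genes, and all 6 of the 6 symbols had a row. RNA-seq had been run on cells sorted from *Atoh1/nGFP* transgenic mice on a C57BL/6 background at postnatal day 1, in which a nuclear green fluorescent protein (GFP) under an *Atoh1* enhancer marks HCs. In each organ, HCs were the cells positive for both GFP and the epithelial surface protein CD326, and epithelial non-sensory cells (ENSCs) were the CD326+ cells without GFP, a mixed population that includes supporting cells. All 4 populations, cochlear HCs, cochlear ENSCs, vestibular HCs and vestibular ENSCs, carried the same transgene and received no treatment, and each came from pooled ears of several mice. For each population 1 column of values was analysed here, called a library below. Whether a column holds 1 library or a mean or pool of the triplicates in the design text is not stated. With 1 column each, the values below carry no replicate error and no p-value, and every difference is one between single columns.

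ATOH1, a basic helix-loop-helix protein, starts the HC programme and binds E-box sequences together with E proteins. POU4F3, a POU-domain factor, acts after ATOH1 and is needed for HCs to mature and survive, and loss of its function causes deafness in mice and humans. GFI1, a zinc finger repressor, depends on POU4F3 in HCs, as LHX3, a LIM-homeodomain factor, does in those of the cochlea, whereas BARHL1, a homeodomain factor, maintains HCs after they have formed, and IKZF2 (Helios), an Ikaros-family zinc finger protein, promotes the mature programme of outer hair cells (OHCs) after birth.

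RefSeq promoter windows were found for 4 of the 6 genes, *Atoh1*, *Gfi1*, *Barhl1* and *Lhx3*, and gave 7 windows of 250 bases before a transcription start. The windows were searched on both strands for the E-boxes CAGCTG and CAGATG, the homeodomain core TAATTA, the GFI1 core AATCAC and the Ikaros core TGGGAA. The 4 windows below show the gene at the head of the programme, which held no match, and the 3 windows that held a match, whose letters are in capitals. Positions are in GRCm38.p6 and sequences read 5′ to 3′ towards the start.
Atoh1, chr6:64728875-64729124 (+ strand): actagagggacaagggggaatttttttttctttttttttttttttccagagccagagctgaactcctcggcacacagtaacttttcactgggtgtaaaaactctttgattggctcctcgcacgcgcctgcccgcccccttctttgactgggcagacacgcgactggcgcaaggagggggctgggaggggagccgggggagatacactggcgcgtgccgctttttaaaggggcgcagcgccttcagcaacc
Barhl1, upstream start site, chr2:28916669-28916918 (- strand): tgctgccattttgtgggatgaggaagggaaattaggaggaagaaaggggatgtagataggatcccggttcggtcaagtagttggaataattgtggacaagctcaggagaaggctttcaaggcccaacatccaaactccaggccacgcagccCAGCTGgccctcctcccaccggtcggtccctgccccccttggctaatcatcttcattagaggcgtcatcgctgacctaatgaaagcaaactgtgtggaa
Barhl1, internal start site, chr2:28912496-28912745 (- strand): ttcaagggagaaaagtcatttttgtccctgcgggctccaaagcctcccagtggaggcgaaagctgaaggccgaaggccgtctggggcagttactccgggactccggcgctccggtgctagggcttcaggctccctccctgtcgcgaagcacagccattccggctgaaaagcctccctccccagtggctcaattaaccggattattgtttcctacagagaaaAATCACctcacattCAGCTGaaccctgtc
Lhx3, internal start site, chr2:26206576-26206825 (- strand): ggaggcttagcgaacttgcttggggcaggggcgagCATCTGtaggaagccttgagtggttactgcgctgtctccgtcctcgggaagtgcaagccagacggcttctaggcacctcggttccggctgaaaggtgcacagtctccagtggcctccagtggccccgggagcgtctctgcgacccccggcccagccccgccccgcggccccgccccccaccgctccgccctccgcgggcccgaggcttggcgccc

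Both *Barhl1* windows held the E-box CAGCTG, from 99 to 94 bases before the upstream start and from 15 to 10 bases before the internal start. The internal window also held AATCAC, from 29 to 24 bases before the start. The *Lhx3* window held CAGATG on the opposite strand, 215 to 210 bases before its start. No match was found in the *Atoh1* window, in the 2 *Gfi1* windows or in the other *Lhx3* window. Matches of this kind are common, because 25.5% of all 32851 promoter windows searched held at least 1 of the E-boxes (13.0% CAGCTG and 14.4% CAGATG) and 9.14% held AATCAC. The core TAATTA, in 4.84% of all windows, and TGGGAA, in 21.6%, were in none of the 7. When the same letters were matched to the mm9 genome, which the reads had been aligned to, the *Atoh1* window and the upstream *Barhl1* window lay outside annotated genes, and the internal *Barhl1* and *Lhx3* windows lay in introns of their own genes with 0 exonic bases.

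The values are a quantile-normalized signal per gene, which has the same distribution in every library, with a median of 120 and a lowest value of 20. An overall shift between cell types is therefore not visible, the sequencing depth is unknown, and fewer cells of a type cannot be told apart from less RNA per cell. In each library the lowest values carried no order among genes, up to 24.25 in cochlear HCs, 22.75 in cochlear ENSCs, 30.5 in vestibular HCs and 20 in vestibular ENSCs. A fold against a value in that range is given as a lower bound. List medians are those of the deposited values, and where tied values at the end of their range nearest the other value (0 where no order is left) give another median, it follows as the median at the bound. As a check of the sort, all 8 of 8 HC marker genes (*Myo7a*, *Myo6*, *Otof*, *Tmc1*, *Espn*, *Cdh23*, *Slc17a8* and *Calb2*) exceeded 3-fold in favour of HCs in the cochlea (8.39% of all genes) as well as in the vestibular system (13.8%). *Epcam*, which encodes CD326, had 1016.75 in cochlear HCs, 3376.25 in cochlear ENSCs, 1139.25 in vestibular HCs and 7511 in vestibular ENSCs. Of 8 supporting cell markers, 4 were lower in cochlear HCs by at least 3-fold (9.2% of all genes) and 4 were within it. In vestibular HCs 3 were lower (14.3%), 1 (*Sox2*) was higher (13.8%) and 4 were within it. The 4 of 5 mesenchymal markers with a row summed to 113.75 in cochlear HCs, 1742.5 in cochlear ENSCs, 166.75 in vestibular HCs and 1557.25 in vestibular ENSCs. In cochlear ENSCs 1618 of that sum was *Col1a2*, with *Col1a1* at 58.25, *Col3a1* at 46.25 and *Tbx18* at 20, while in vestibular ENSCs the same genes had 443.25, 512.25, 547 and 54.75. Of 3 endothelial markers, *Pecam1* and *Cdh5* had no row, and the receptor gene *Kdr* stood at 1461.75 in vestibular ENSCs, against 24.25 to 29.75 in the other libraries. None of the 4 blood cell markers had a row.

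The first question was how far each factor separated HCs from the surrounding epithelium. Of the 6 genes, 5 were at least 3-fold higher in cochlear HCs than in cochlear ENSCs, where 8.39% of all genes were. The same 5 genes, *Atoh1*, *Pou4f3*, *Gfi1*, *Barhl1* and *Lhx3*, were at least 3-fold higher in vestibular HCs than in vestibular ENSCs, against 13.8% of all genes, and 4.99% of all genes were past 3-fold towards HCs in both organs. *Ikzf2* was the exception and was higher in ENSCs: it was the 1 gene of the 6 at least 3-fold lower in cochlear HCs (9.2% of all genes), and in the vestibular system 0 of the 6 passed 3-fold in that direction (14.3% of all genes). Over the 6 genes, HCs to ENSCs gave a median log2 ratio of 4.48 as deposited for the cochlea (at least 4.47 with tied values at their bound) and of at least 3.78 for the vestibular system, beside 0 and -0.0045 over all genes.

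**Figure D1:**
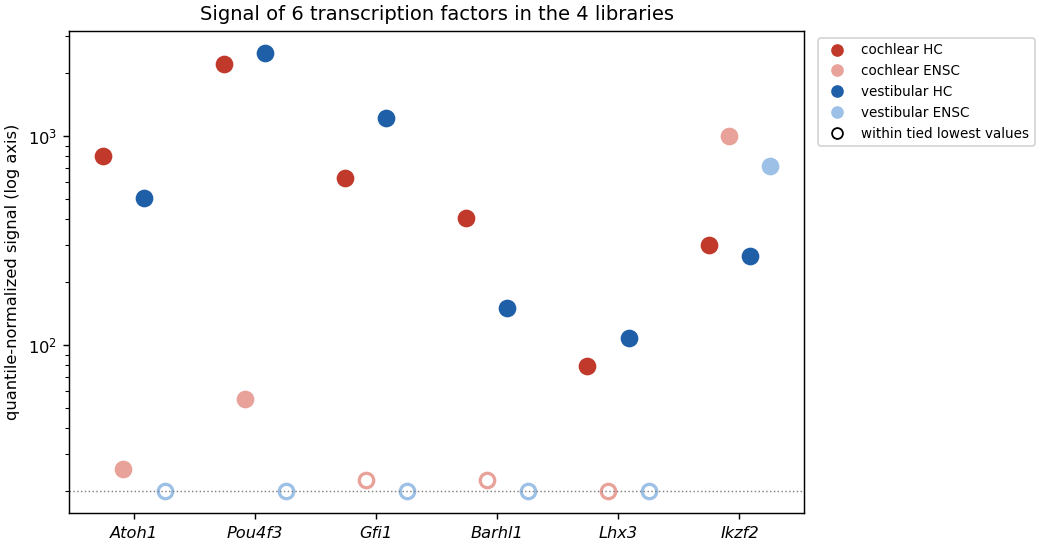
Quantile-normalized signal (log axis) of each of the 6 transcription factor genes in the 4 libraries, 1 point per library, with open circles for values within the tied lowest values and a dotted line at the floor of 20. In 5 genes both HC points (79.25 to 2489.5) lie above both ENSC points (20 to 55.25), and in *Ikzf2* both HC points (266 and 300.0) lie below both ENSC points (714.5 and 1002.75).

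*Atoh1* (ENSMUSG00000073043; mm9 chromosome 6, 64679140 to 64681227, plus strand, 1 exon) had a signal of 804.5 in cochlear HCs, 25.5 in cochlear ENSCs, 503.5 in vestibular HCs and 20 in vestibular ENSCs. Both HC libraries were high and both ENSC libraries were at or close to the floor. The signal in cochlear HCs was 31.5-fold that in cochlear ENSCs (log2 ratio 4.98), and in vestibular HCs it was at least 25.2-fold higher. The sort itself used a reporter under an *Atoh1* enhancer, so that this separation is partly built into the populations. Among all genes the cochlear ratio stood at percentile 99.6 and the vestibular ratio at percentile 98.9.

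*Pou4f3* (ENSMUSG00000024497; mm9 chromosome 18, 42554251 to 42555747, plus strand, 2 exons) was at 2198.75 in cochlear HCs and 2489.5 in vestibular HCs, against 55.25 in cochlear ENSCs and 20 in vestibular ENSCs. The HC signal was 39.8-fold higher in the cochlea (log2 ratio 5.31) and at least 124-fold higher in the vestibular system (6.96). Among the 5 genes that were higher in HCs, *Pou4f3* and *Atoh1* were those with a cochlear ENSC value above the tied range. For *Pou4f3* that value was 2.51% of the cochlear HC value, whereas the vestibular value was at the floor, which puts the ENSC share there at or under 0.803%. The 8 HC markers had ENSC shares from 2.07% to 16.3% in the cochlea, with the lowest for *Myo7a*, which encodes the myosin of stereocilia and cell body, and with 3.78% for *Otof*, which encodes the vesicle protein otoferlin. The part of HC RNA in the ENSC signal of *Pou4f3* was not tested.

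*Gfi1* (ENSMUSG00000029275; mm9 chromosome 5, 108145674 to 108155056, minus strand, 8 exon blocks) stood at 626 in cochlear HCs, 22.5 in cochlear ENSCs, 1219.75 in vestibular HCs and 20 in vestibular ENSCs. Both ENSC values were within the tied range, so that HCs exceeded ENSCs by at least 27.5-fold in the cochlea and by at least 61.0-fold in the vestibular system. Annotated exons of the opposite-strand transcript A430072P03Rik overlap those of *Gfi1* by 101 bases, and since the strand setting of the counting is not stated, reads in that stretch cannot be assigned to 1 of the genes. A430072P03Rik had no row of its own.

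*Barhl1* (ENSMUSG00000026805; mm9 chromosome 2, 28763199 to 28772188, minus strand, 5 exon blocks) was at 403.5 in cochlear HCs, 22.5 in cochlear ENSCs, 150.5 in vestibular HCs and 20 in vestibular ENSCs. These values put HCs at least 17.7-fold above ENSCs in the cochlea and at least 7.525-fold above them in the vestibular system. *Lhx3* (ENSMUSG00000026934; mm9 chromosome 2, 26055732 to 26063769, minus strand, 7 exon blocks) had low signals in both HC libraries, with 79.25 in cochlear HCs and 107.5 in vestibular HCs against 20 in both ENSC libraries. Its bounds were the lowest of the 5, at least 3.48-fold higher and at least 5.38-fold higher. With every value under 100 raised to 100, the vestibular log2 ratio of *Barhl1* was 0.59 and those of *Lhx3* fell to 0 (cochlea) and 0.10 (vestibular system), all within 3-fold, and *Lhx3* was within 3-fold in both organs already with a floor of 50.

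*Ikzf2* (ENSMUSG00000025997; mm9 chromosome 1, 69577788 to 69732534, minus strand, 8 exon blocks) was measured well above the floor in all 4 libraries, at 300.0 in cochlear HCs, 1002.75 in cochlear ENSCs, 266 in vestibular HCs and 714.5 in vestibular ENSCs. Each ENSC library was higher than each HC library. In HCs the signal was 3.34-fold lower in the cochlea (log2 ratio -1.74) and 2.69-fold lower in the vestibular system (-1.43). With 100 added to every value the cochlear log2 ratio was -1.46, which is within 3-fold. The ratios as deposited were at percentiles 7.78 and 16.9 of all genes, whereas those of the other 5 genes lay between percentiles 93.2 and 99.9.

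**Figure D2:**
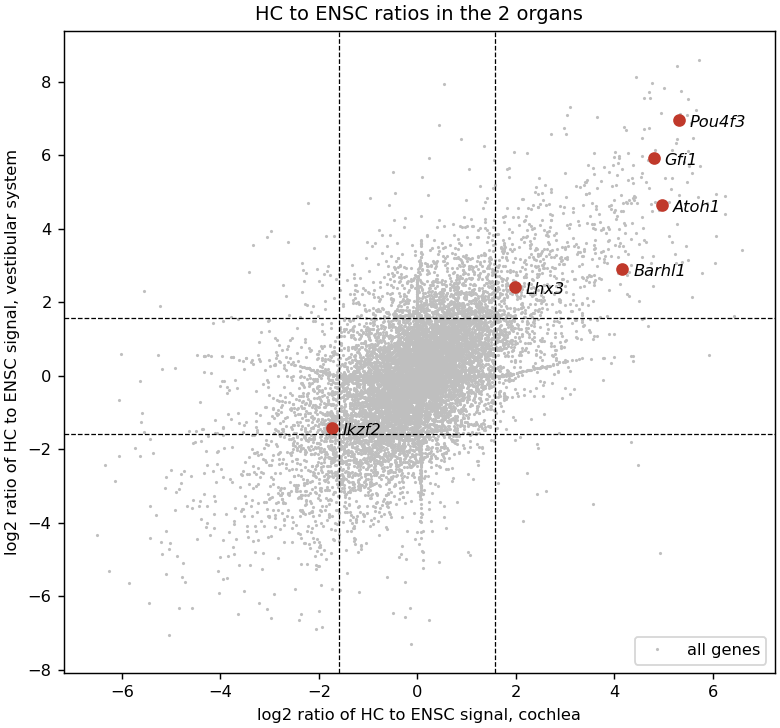
Log2 ratio of HC to ENSC signal in the cochlea (horizontal axis) against that in the vestibular system (vertical axis), with all 12814 genes in grey, the 6 transcription factor genes in red and dashed lines at 3-fold. *Pou4f3*, *Gfi1*, *Atoh1*, *Barhl1* and *Lhx3* lie in the upper right field, and *Ikzf2* lies at the lower left (-1.74 and -1.43), past the cochlear line and within the vestibular line; ratios against tied values are lower bounds.

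The second question was whether cochlear and vestibular HCs differed in these factors. None of the 6 genes was at least 3-fold higher (4.21% of all genes) or lower (5.09%) in cochlear than in vestibular HCs. The widest gap was that of *Barhl1*, with 403.5 in cochlear against 150.5 in vestibular HCs, or 2.68-fold. *Gfi1* differed in the other direction and was 1.95-fold lower in cochlear HCs. *Atoh1* was 1.60-fold higher in cochlear HCs, and *Lhx3* was 1.36-fold lower there. *Pou4f3* (1.13-fold lower) and *Ikzf2* (1.13-fold higher) were nearly level between the HC libraries.

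The ratio of 1 factor to another within a library also differed between the HC libraries. The change of such a ratio from library to library does not depend on the lengths of the genes. The ratio of *Gfi1* to *Barhl1* signal was 5.22-fold higher in vestibular than in cochlear HCs. The ratio of *Gfi1* to *Atoh1* was 3.11-fold higher there, and that of *Pou4f3* to *Atoh1* 1.81-fold higher. These pairs were picked with the values in view, and their ratios have no replicate to be set against.

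Between the ENSC libraries, 0 of the 6 genes were at least 3-fold higher (7.8% of all genes) or lower (7.94%) in the cochlea. *Pou4f3* came nearest, since its 55.25 in cochlear ENSCs was at least 2.76-fold the vestibular value at the floor. Its log2 ratio of 1.47 fell to 0.14 with a floor of 50 and to 0 with a floor of 100. *Ikzf2* was 1.40-fold higher in cochlear ENSCs (log2 ratio 0.49), a direction that turned (-0.22) after correction for the length and GC content of exons. For *Gfi1*, *Barhl1* and *Lhx3* both ENSC values were within tied ranges, and no ratio can be given. The HC to ENSC log2 ratio of *Pou4f3* was larger in the vestibular system than in the cochlea by at least 1.65, since the vestibular ENSC value was at the floor. With a floor of 50 these ratios were closer, at 5.64 (vestibular system) and 5.31 (cochlea). As deposited, the difference was 1.13 for *Gfi1*, -1.25 for *Barhl1* and 0.44 for *Lhx3*, where both ratios are bounds, -0.33 for *Atoh1*, where the vestibular ratio is one, and 0.32 for *Ikzf2*. Correction for the length and GC content of exons turned the differences of *Atoh1* (5.31 in the vestibular system against 5.14 in the cochlea) and *Ikzf2* (-2.21 against -1.93). It brought the ratios of *Barhl1* close together (4.15 against 4.31). No difference between organs was tested, and the direction of the HC to ENSC ratio was the same in both organs for all 6 genes.

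For the order of levels among the factors, the signal was divided by exonic length, which ranged from 1146 bases for *Pou4f3* to 9417 bases for *Ikzf2*. Per kb of exon, *Pou4f3* led in both HC libraries, with 1919 in cochlear and 2172 in vestibular HCs, above 99.5% and 99.4% of all genes. *Atoh1* was next in cochlear HCs with 385 per kb, followed by *Gfi1* with 193 and *Barhl1* with 103. In vestibular HCs the order of *Gfi1* (375 per kb) and *Atoh1* (241) was exchanged, and *Barhl1* was down to 38.5. *Lhx3*, at 26.4 and 35.8 per kb, and *Ikzf2*, at 31.9 and 28.2, were low and close to each other in both HC libraries. No replicates give the spread that the steps between neighbours in this order should be read against. The RNA had been amplified before library construction, and the effect of that step on this order was not tested. In the ENSC libraries *Ikzf2* led, with 106 per kb (cochlea) and 75.9 per kb (vestibular system), above 75.0% and 67.9% of all genes.

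**Figure D3:**
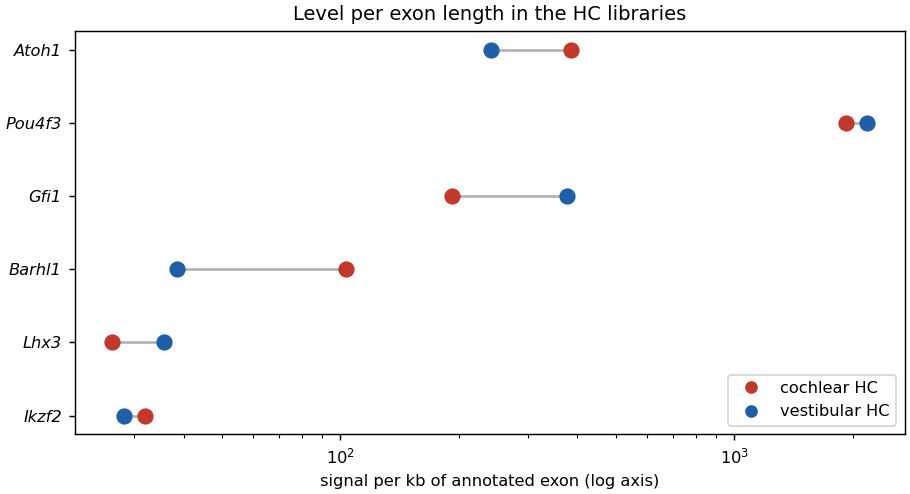
Signal per kb of annotated exon (log axis) of the 6 transcription factor genes in cochlear HCs (red) and vestibular HCs (blue), 1 library each, joined by a grey line. *Pou4f3* is highest at 1919 and 2172, *Gfi1* and *Atoh1* exchange places between the organs, and *Barhl1* shows the longest line, from 103 to 38.5.

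The 5 genes that were higher in HCs also shared a sequence property that had no part in their choice. Their exons were rich in GC, from 53.2% in *Atoh1* to 60.8% in *Pou4f3*, against a median of 48.8% over all genes, and 4 of the 5 (*Gfi1*, *Barhl1*, *Lhx3* and *Pou4f3*) lay between percentiles 93.2 and 98.1 of all genes. *Ikzf2* had 40.3% GC and the longest exonic length of the 6. The trends of the ratios on the length and GC content of exons were then removed, as fitted over genes above the floor in both libraries of a ratio. After this the vestibular log2 ratios of the 5 genes lay between 3.78 (*Lhx3*) and 8.42 (*Pou4f3*), each against an ENSC value at the floor. That of *Ikzf2* went to -2.21, past 3-fold. In the cochlea the same correction moved none of the 6 ratios across 3-fold.

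Genes whose profiles over the 4 libraries were most like each factor were sought among the other protein-coding genes that reached 200 in some library, by the root mean square (r.m.s.) difference between log2 profiles centred on their own means. *Atoh1* was closest to *Pcdh8*, a protocadherin gene (727.75, 22.5, 461.5 and 20 in cochlear HCs, cochlear ENSCs, vestibular HCs and vestibular ENSCs; r.m.s. difference 0.068), and to *Dytn* (0.080). *Pou4f3* was closest to *Myo3b*, which encodes a myosin of stereocilia tips (2232.25, 71.75, 2879.25 and 20.25; 0.149), then to 1700003M02Rik (0.192) and to the neurofilament gene *Nefl* (0.207). *Gfi1* was closest to *Myo15*, another stereocilia myosin gene (688.5, 26.75, 1171 and 20; 0.120), and to *Ttc21a* (0.169).

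*Barhl1* was closest to *Tmc2*, which encodes a channel protein of mechanotransduction (376.5, 22.25, 187.75 and 20; 0.159), and to *Chrna10*, a subunit of the acetylcholine receptor of HCs (0.166). *Lhx3* was closest to *Trim62* (0.069) and *Shank2* (0.080), with 2563.75, 591.75, 3619.25 and 681 for *Shank2*, but both ENSC values of *Lhx3* lay at the floor, so this likeness depends on the floor value. *Ikzf2* was closest to *Elf1*, an ETS factor gene (439.75, 1512.5, 384.75 and 1129.5; 0.049), and to *Prkci* (0.073), which encodes a polarity kinase. Between the factors themselves, the difference was smallest for *Atoh1* and *Gfi1* (0.644) and for *Gfi1* and *Pou4f3* (0.660), wider than to their nearest genes, and *Ikzf2* was 1.91 to 3.88 from the other 5. With 4 libraries and values at the floor, likeness of profile describes these libraries only.

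Genes known to act on *Atoh1* were read next. Of 6 inducers, none was 3-fold apart between HCs and ENSCs in the cochlea, whereas in vestibular HCs 1 was at least 3-fold higher (13.8% of all genes), with list medians of -0.43 and -0.94 on the log2 scale. This was *Sox2*, the prosensory factor gene (3960.75 in vestibular HCs against 465.75, and 2659.5 against 2103.75 in the cochlea). *Gata3*, a factor gene of the auditory epithelium, had 3920.5 and 5323.5 in cochlear HCs and ENSCs but 30.5 and 75.5 in the vestibular libraries. The vestibular ENSC library, in which *Kdr*, *Col1a1* and *Col3a1* were highest, was the low one for *Sox2*, while *Col1a2* was highest in cochlear ENSCs. The part of RNA from other cell types in the vestibular ratio of *Sox2* was not tested in these CD326+ cells.

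Of 12 inhibitors of *Atoh1* or of its protein, 3 were at least 3-fold lower in HCs of the cochlea (9.2% of all genes) and 4 in those of the vestibular system (14.3%), and 1 was at least 3-fold higher in the vestibular system (13.8% of all genes; list medians -0.74 and -0.30). *Notch1*, the receptor of lateral inhibition, was at 107.75 in cochlear HCs against 351.75 in ENSCs, and at 87.5 against 1887 in the vestibular system. *Id1* and *Id3*, whose proteins take up the E proteins that ATOH1 needs, were lower in HCs in both organs, with *Id3* at 246 against 1081.25 in the cochlea and 83.25 against 1068.25 in the vestibular system. *Id2* was past 3-fold in the vestibular comparison, 437 against 1877.75, and within it in the cochlear one, 1873.5 against 5287. *Id4* went the other way, with 6408 in vestibular HCs against 804 in ENSCs (7.97-fold) and 2474.25 against 1197.5 in the cochlea. *Kdr* and 3 of 4 mesenchymal markers were at least 3-fold lower in vestibular HCs as *Notch1* and *Id1* were, against 1 of 4 mesenchymal markers (*Col1a2*) in cochlear HCs. All 4 of 4 epithelial markers and 2 of 4 glial markers were at least 3-fold lower in vestibular HCs too, and 3 of 4 of each in cochlear HCs. The keratin gene *Krt18* had 146.5 in cochlear HCs, 581 in cochlear ENSCs, 172.5 in vestibular HCs and 6188.75 in vestibular ENSCs, and the glial factor gene *Sox10* had 45, 202.5, 45.75 and 1183. The part of any of these cell types in the ratios of *Notch1* and the *Id* genes was not tested. Among the Notch effectors *Hes1*, *Hes5*, *Hey1*, *Hey2* and *Heyl*, none was 3-fold apart in either organ, and *Hes5*, the marker of Notch-receiving supporting cells, was at or near the floor throughout (30.5, 42.25, 20 and 20). Of the 3 E protein genes, *Tcf3* alone was past 3-fold, lower in vestibular HCs (63.25 against 277.5; 14.3% of all genes).

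Notch genes that nascent HCs switch on under ATOH1 were higher in HCs, 4 of 4 past 3-fold in the cochlea (8.39% of all genes) and 3 of 4 in the vestibular system (13.8%), with list medians of 3.77 (3.72 at the bound) and 3.03. *Dll1*, which encodes the ligand of lateral inhibition, had 375 in cochlear HCs, 22.25 in cochlear ENSCs, 452.5 in vestibular HCs and 65.25 in vestibular ENSCs. The ligand gene *Jag2* had 309, 22, 289 and 30, and *Dll3* had 290.75, 22, 206 and 20. *Hes6*, a bHLH gene activated by ATOH1, was at 76.75 in cochlear HCs, at least 3.37-fold above ENSCs, and within the tied lowest values in vestibular HCs (20.75).

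Of 6 genes linked to POU4F3, 3 (*Gfi1*, *Lhx3* and *Bdnf*) were past 3-fold towards HCs in each organ (4.99% of all genes), with list medians of 1.30 and 1.39 (1.2 and 1.21 at the bound). *Gfi1* and *Lhx3* are among the 6 factors already described, and of the 4 other genes 1 (*Bdnf*) passed, with medians over those 4 of 0.38 and 0.12 (-0.06 at the bound in the vestibular system). *Bdnf*, which encodes a neurotrophin that HCs supply to their neurons, had 1861.25 in cochlear HCs, 110.25 in cochlear ENSCs, 2623.25 in vestibular HCs and 47.75 in vestibular ENSCs. It was thus 16.9-fold and 54.9-fold higher, and its step was wider in the vestibular system, as that of *Pou4f3* was. *Ntf3*, the other neurotrophin gene, *Caprin1* and *Nr2f2* were not past 3-fold in either organ. *Nr2f2* and *Ntf3* were instead past 3-fold towards the cochlea in HCs (4.21% of all genes) and in ENSCs (7.8%). *Nr2f2* had 1961.5 and 3978.5 in cochlear HCs and ENSCs and 66 and 89.5 in the vestibular ones. *Ntf3* had 152.5 and 100 in the cochlear libraries against 25.5 and 20, both tied values, in the vestibular ones, at least 5-fold higher in both cell types. Of 6 cofactors of LHX3 and GFI1, *Ldb2*, a gene for a LIM-domain-binding protein, was 45 in cochlear HCs against 1258.5 in ENSCs and 29.75 against 226 in the vestibular system. *Ldb1*, its paralogue, was level in the cochlea (150.25 and 149) and lower in vestibular HCs (137.5 against 464.5), and the corepressor genes *Kdm1a* and *Rcor1* were within 3-fold in both organs.

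**Figure D4:**
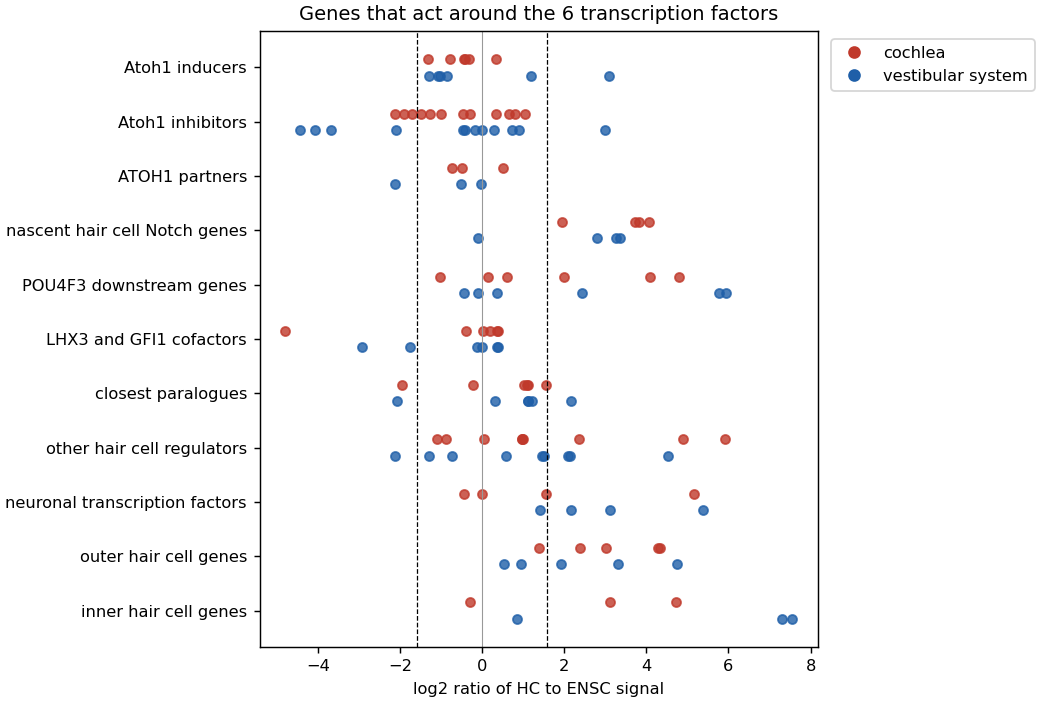
Log2 ratio of HC to ENSC signal for each gene of 11 lists of genes that act around the 6 factors, 1 point per gene, red for the cochlea and blue for the vestibular system, with dashed lines at 3-fold. All 4 Notch genes of nascent HCs lie right of the line in the cochlea, *Ldb2* is the lowest cofactor (-4.81 and -2.93), and most inducers, partners and cofactors lie between the lines.

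The closest paralogues of the 6 factors were compared with them per kb of exon. Of 10 listed, 6 had a row, and no paralogue of *Atoh1*, *Gfi1* or *Barhl1* was among them. *Pou4f1* had 73.5 and 89.5 in cochlear and vestibular HCs, *Pou4f2* 42.5 and 46, *Lhx4* 40.5 and 43.5, and *Ikzf1* 43.5 in both. Per kb of exon *Pou4f1* reached 26.0 and 31.6 in the HC libraries, against the 1919 and 2172 of *Pou4f3*. *Lhx4* reached 21.9 and 23.5 per kb, not far below the 26.4 and 35.8 of *Lhx3*. *Ikzf4* (Eos) had the same direction as *Ikzf2* and was past 3-fold in both organs, with 68.75 in cochlear HCs, 267.25 in cochlear ENSCs, 175.25 in vestibular HCs and 733.25 in vestibular ENSCs (log2 ratios -1.96 and -2.06). *Ikzf5* (Pegasus) had 526.25, 616.5, 548.25 and 438.75, with no step between HCs and ENSCs, and per kb it was the highest of the Ikaros family in the HC libraries (108 and 112 against 31.9 and 28.2 for *Ikzf2*). The median log2 ratio of HCs to ENSCs over the 6 paralogues was 1.05 in the cochlea (0.87 at the bound) and 1.12 in the other organ, and 1 of the 6, *Pou4f1* in the vestibular system, was at least 3-fold higher in HCs (13.8% of all genes).

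Of 9 other regulators of HCs, 3 were at least 3-fold higher in cochlear HCs (8.39% of all genes) and none was lower (9.2%), and in vestibular HCs 3 were higher (13.8%) and 1 was lower (14.3%; list medians 0.97 and 1.45). *Srrm4*, which encodes a splicing factor that acts on *Rest*, was at 1358.25 in cochlear HCs and 1470.25 in vestibular HCs against 45.5 and 64.25 in ENSCs. *Rest*, the gene for the repressor of neuronal genes, was lower in HCs but within 3-fold, at 1760.75 against 3783.5 and 1610.75 against 2683.25. *Insm1*, a zinc finger gene of embryonic OHCs, was at 1378.75 in cochlear HCs and within the tied lowest values in both vestibular libraries.

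Of 6 factor genes shared with neurons 4 had a row, and at least 3-fold higher were 1 in cochlear HCs (8.39% of all genes) and 3 in vestibular HCs (13.8%), and none was lower. *Nhlh1*, a bHLH gene past 3-fold in both organs, had 1227.5 in cochlear HCs, 34.25 in cochlear ENSCs, 831.25 in vestibular HCs and 20 in vestibular ENSCs, so that HCs were 35.8-fold above ENSCs in the cochlea and at least 41.6-fold above them in the vestibular system. *Isl1*, a LIM-homeodomain gene of HCs and neurons, was within 3-fold in the cochlea (3682 in HCs and 4976.25 in ENSCs) and 8.72-fold higher in vestibular HCs (2957.25 against 339). *Pou4f1* was the other gene past 3-fold in vestibular HCs, and *Nhlh2* was at 20 in every library but vestibular HCs (52.75). Of 8 neuron markers 4 had a row, and *Isl1* was one of them. The 3 others summed to 3702.5 in cochlear HCs, 175.75 in cochlear ENSCs, 4582.5 in vestibular HCs and 60 in vestibular ENSCs, and with *Isl1* the sums were 7384.5, 5152, 7539.75 and 399. *Nefl* and *Snap25* were high in both HC libraries, *Stmn2* was at 30.75 and 22 there, and *Tubb3*, *Prph*, *Nefh* and *Neurod1* had no row. HCs had been gated on CD326 as well as GFP, a gate meant to leave out neurons with GFP, and the part of neuronal RNA in these values was not tested.

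Mature HC subtype genes were compared because IKZF2 acts on the OHC programme. Of 5 OHC genes with a row, 4 were at least 3-fold higher in cochlear HCs (8.39% of all genes) and 3 in vestibular HCs (13.8%; list medians 3.01, or 2.91 at the bound, and 1.92). *Slc26a5*, which encodes the OHC motor protein prestin, had 455 in cochlear HCs and values within the tied ranges in the other 3 libraries, so cochlear HCs exceeded vestibular HCs by at least 14.9-fold, while *Ikzf2* differed by 1.13-fold between those libraries. *Ocm*, which encodes a calcium-binding protein, had 57.75 in cochlear HCs but 533.75 in vestibular HCs. Of 3 inner hair cell genes with a row, 2 were at least 3-fold higher in cochlear HCs (8.39% of all genes) and 2 in vestibular HCs (13.8%). *Slc17a8*, a vesicular glutamate transporter gene, was at 1058 in cochlear HCs and at 11819.8 in vestibular HCs, while *Otof* had 1565.5 and 3806. The remaining gene, *Tbx2*, was within 3-fold, with 109.5 in cochlear HCs against 133.75 in ENSCs and 363 against 201.5 in the vestibular system. The cochlear HC library holds inner and outer hair cells together, so the share of either subtype behind the *Ikzf2* signal cannot be read from these values.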

How the data were processed

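RNA from 4 sorted populations was sequenced, with 1 column each in the table analysed here. The study's design text speaks of triplicates, and whether a column is 1 library or a mean or pool of them is not stated. The paper's methods state that the RNA was amplified to cDNA before the libraries were made. The authors trimmed reads to their first 50 nt and mapped them to mm9 with TopHat. Counts for ENSEMBL genes, obtained with HTSeq, were quantile-normalized by the authors with a floor of 20, so the deposited values are a signal and not counts. The paper describes the floor as set after the normalization, whereas the deposited values are labelled with the floor first. Which order was used is not settled here. Tool versions, the annotation release and the strand setting are not given in the sources used here. Depth is unknown, so no counting interval is given.

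Groups came from the source names and columns were matched by title. Log2 ratios of the signal were taken without a pseudocount, and a ratio of at least 3 was counted as past the threshold. With 1 library per group no test was made. The unordered lowest values of a library were taken to end where the highest signal of the same genes in the other libraries, as a median, collapsed. Exonic length, GC content and positions came from GENCODE vM1 (NCBIM37, the mm9 assembly), in which 12799 of 12814 genes were found. Promoter windows came from RefSeq (GRCm38.p6), and each of the 7 windows matched mm9 at 1 place. Named genes are the 6 factors, the genes of the lists and marker sets, and for each factor its 3 nearest protein-coding genes. 2 genes of the lists are not reported here. The factors and the lists were chosen with earlier results of these data known. Python 3.11.15 with numpy 2.4.6, pandas 2.3.3, statsmodels 0.14.6 and matplotlib 3.10.9 was used. Alternatives were floors of 50 and 100, pseudocounts of 20 and 100, thresholds of 2 and 5, tied values raised to the top of their range, median centring, and correction for exonic length and GC content (lowess with a span of 0.3). Protein-coding genes alone and genes with a signal of at least 100 were tried for the counts over all genes.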

Additional observations from a re-analysis of the deposited data

Results flagged for a closer look

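Genes of the lists and marker sets whose HC to ENSC ratio had opposite signs in the 2 organs, and passed 3-fold in at least 1 of them, are given here as the log2 ratio in the vestibular system minus that in the cochlea. None of the 6 transcription factors was among them, and no difference was tested, since each population had 1 library. Among regulators, the difference was 3.56 for *Isl1* (log2 ratio -0.43 for the cochlea and 3.12 for the vestibular system) and -1.77 for the LHX3 cofactor gene *Ldb1* (0.01 and -1.76). Among markers, it was 3.43 for the supporting cell gene *Tectb* (-2.74 and 0.69), 1.68 for *Sparcl1* (-1.64 and 0.03) and -4.52 for the epithelial cadherin gene *Cdh1* (0.31 and -4.21). The cochlear ratio of *Ldb1* and the vestibular ratio of *Sparcl1* were near level, so an opposite direction is not established for either. For 2 more genes the deposited values differ in sign, by -2.04 for *Hes6* and -2.16 for *Hmx2*, but the opposite direction is not established, because the vestibular HC value of *Hes6* and both cochlear values of *Hmx2* lie within the unordered lowest values.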

How the results depend on the processing

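No paired analysis was possible because each group had 1 sample, so that the groups compared shared fewer than 2 replicate numbers, and no result came from a test. The HC to ENSC ratios of the 6 factors kept their direction under the alternatives run, except that the cochlear ratio of *Lhx3* was 0 on the log2 scale with values under 100 raised to 100. The count of 5 factors at least 3-fold higher in vestibular HCs was 3, without *Barhl1* and *Lhx3*, with values under 100 raised to 100 and with 100 added to every value. In the cochlea it was 4, without *Lhx3*, under both raised floors, both pseudocounts and the 5-fold threshold. The cochlear call of *Ikzf2* as at least 3-fold lower was lost with 100 added (log2 ratio -1.46) and at 5-fold, and its ratio between the ENSC libraries turned from 0.49 to -0.22 after correction for exonic length and GC content. The count of 0 factors apart between the HC libraries was 1 at 2-fold (*Barhl1*). The count of 0 between the ENSC libraries was 1 at 2-fold and 1 after correction for exonic length and GC content. The gene was *Pou4f3* in both cases. Its log2 ratio was 2.48 after correction and 0.14 with a floor of 50, and its vestibular ENSC value was at the floor of 20. Of the log2 ratios of the factors under the alternatives, 116 moved by less than 1.5-fold and 52 by more. The background moved as well: the 1075 genes at least 3-fold higher in cochlear HCs and the 1762 in vestibular HCs were 394 and 672 with 100 added, 522 and 901 with the floor at 100, 2110 and 3017 at 2-fold, and 584 and 942 at 5-fold. The depth is unknown, so no counting error can be set beside the low values of *Lhx3* and *Barhl1*.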
